A study of Homo sapiens with 13 samples.

Results

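The EIF genes encode the eukaryotic translation initiation factors, the proteins that bring a ribosome, an mRNA and the initiator tRNA together. Their symbols also cover regulators and relatives of these factors, such as the EIF2 kinases and the EIF4E-binding proteins. They were taken as the protein-coding genes of GENCODE version 44 whose symbol is EIF, a digit from 1 to 6 and then only letters or digits, which gave 56 of 20033 coding genes on chromosomes 1 to 22, X and Y. For each gene, the deposited PTBP1 and RUNX1 peaks were looked up within 1 kb of its transcription start site (TSS), the 5′ end of the annotated gene, and elsewhere in the gene body. The rule used names only and no measured value.

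Initiation begins when EIF2, carrying GTP and the initiator methionyl-tRNA as a ternary complex, joins the small ribosomal subunit together with EIF1, EIF1A, EIF3 and EIF5. The EIF4 factors bind the mRNA cap and unwind the leader, and the subunit then scans for a start codon, after which EIF5B joins the large subunit. Phosphorylation of EIF2 by stress kinases, and capture of the cap-binding protein EIF4E by its binding proteins, are the classical brakes on this pathway, and leukemia cells are known to lean on its output for growth.

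The series comprised 13 chromatin libraries from MOLM-13, a widely used human line of acute myeloid leukemia, which carried no further allele or treatment in the labels. CUT&Tag, in which an antibody guides a transposase to the target, was done with antibodies to PTBP1 (2 libraries), RUNX1 (2) and control IgG (1), and CUT&RUN, in which the antibody guides a nuclease, with antibodies to PTBP1, RUNX1, H3K27me3 and IgG (2 libraries each). PTBP1 is an RNA-binding splicing regulator and RUNX1 a DNA-binding transcription factor, and the study asked whether they occupy the same chromatin. The data used here are 1 PTBP1 list of 9370 peaks and 1 RUNX1 list of 7688 peaks on hg38, which name a target but neither assay nor replicate, and measurements per library were not analysed here. No spread between replicates can therefore be given and no test was possible, so the counts below stand beside the same counts over all coding genes as a description.

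Some of the sequences described below are shown first, all read from hg38 on the strand of the gene. The first 4 hold the RUNX core letters TGTGGT or TGCGGT, in capitals on whichever strand they lie. They are at the promoter of EIF2B5 (chr3:184135278-184135387, plus strand, 80 bases before to 29 after the canonical transcript start), in the 5′ UTR of EIF2S2 (chr20:34112185-34112213, minus strand), in intron 1 of EIF4EBP2 (chr10:70405570-70405669, plus strand) and before the canonical start of EIF2AK3 (chr2:88627999-88628118, minus strand). In that order, the letters lay 13, 6, 5 and 66 bases from the RUNX1 summit. The RUNX1 TSS peaks of highest fold enrichment, at EIF2B4 and EIF1, held such letters only 902 and 529 bases from the summit.

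EIF2B5 promoter: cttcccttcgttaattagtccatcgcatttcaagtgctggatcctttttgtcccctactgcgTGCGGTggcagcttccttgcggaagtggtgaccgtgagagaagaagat
EIF2S2 5′ UTR: gTGCGGTggtgggagaggtatcggcaggg
EIF4EBP2 intron 1: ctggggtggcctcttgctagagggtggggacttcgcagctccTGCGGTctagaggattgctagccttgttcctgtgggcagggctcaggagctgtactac
EIF2AK3 before the canonical start: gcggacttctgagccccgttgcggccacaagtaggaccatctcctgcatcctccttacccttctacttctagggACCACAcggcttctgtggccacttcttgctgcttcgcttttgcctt

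The promoters of EIF4A1 (chr17:7572625-7572854, plus strand) and EIF1 (chr17:41688765-41688914, plus strand) carried the PTBP1 peaks of highest fold enrichment among the EIF genes. Both end 29 bases after the canonical start, and capitals mark the GC box letters GGGCGG on either strand.

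EIF4A1 promoter: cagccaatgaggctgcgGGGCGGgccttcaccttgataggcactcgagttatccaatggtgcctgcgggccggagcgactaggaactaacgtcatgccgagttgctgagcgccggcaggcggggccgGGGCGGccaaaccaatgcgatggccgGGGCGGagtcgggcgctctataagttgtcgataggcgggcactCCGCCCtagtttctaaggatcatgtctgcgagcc
EIF1 promoter: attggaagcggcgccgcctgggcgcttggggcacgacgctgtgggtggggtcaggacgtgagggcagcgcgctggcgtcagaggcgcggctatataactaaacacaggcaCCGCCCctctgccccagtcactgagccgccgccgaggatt

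A PTBP1 peak lay within 1 kb of the TSS at 36 of the 56 EIF genes (64.3%), against 26.4% of all coding genes. RUNX1 peaks lay there at 23 (41.1%), against 21.3%. Both lists had a peak at 22 (39.3%), against 17.3%. At each of these 22 the PTBP1 and RUNX1 peaks overlapped by at least 1 base, as they did at 3454 of the 3469 coding genes with both. A PTBP1 peak without a RUNX1 peak was listed at 14 (25%), against 9.05% of coding genes. The reverse was listed at a single gene, EIF2B5 (1.79%), against 3.98%. The remaining 19 EIF genes (33.9%) had no TSS peak in either list, against 69.7% of all coding genes. Thus the EIF genes had a TSS peak more often than coding genes at large in both lists, and the peaks missing from 1 list were, apart from that of EIF2B5, missing from the RUNX1 list. A peak missing from a list was not called there, which is not an absence of signal. The study describes signal of each factor at almost all peaks of the other. Of the 36 EIF genes with a PTBP1 peak, 61.1% also had a RUNX1 peak, close to the 65.7% over all coding genes with a PTBP1 peak. Of the 23 with a RUNX1 peak, 95.7% also had a PTBP1 peak, against 81.3% of coding genes with a RUNX1 peak.

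**Figure D1:**
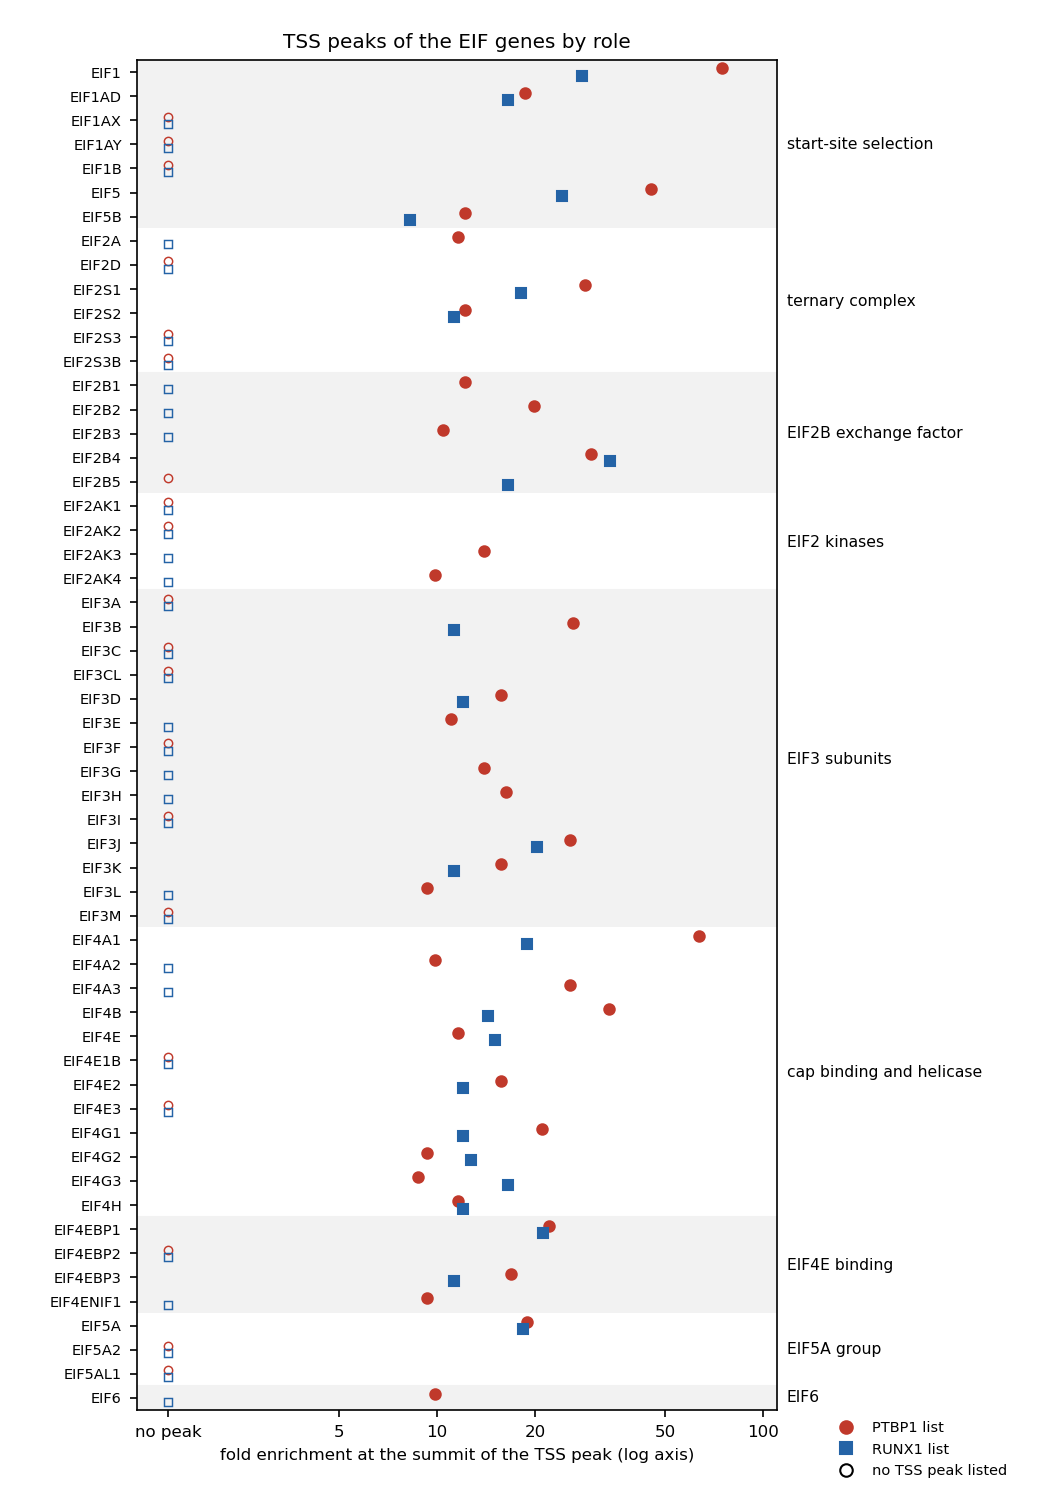
Fold enrichment at the summit of the TSS peak (horizontal log axis) for each of the 56 EIF genes, grouped by role. Filled circles are the PTBP1 list, filled squares the RUNX1 list and open symbols at the left mark a list with no TSS peak. EIF1 and EIF4A1 lie farthest to the right in the PTBP1 list, and rows with only a circle are more common than rows with only a square, of which EIF2B5 is the single case.

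Other groups of the translation machinery had related shares. Among 28 further genes of translation initiation and its control, 57.1% had a PTBP1 and 35.7% a RUNX1 peak at the TSS, and these shares were 60.2% and 36.4% among the 88 cytosolic ribosomal protein genes. The PTBP1 share was lower among 20 cytosolic aminoacyl-tRNA synthetases, at 45.0%, and among 12 elongation and release factors, at 41.7%. Their RUNX1 shares were 35.0% and 41.7%, the latter near the 41.1% of the EIF genes. The EIF genes had the highest PTBP1 share of these groups, with the ribosomal protein genes next, and the differences between groups were not tested. Within the list of further initiation genes, DDIT3, a stress transcription factor acting after ATF4, had the highest PTBP1 fold enrichment, 86.0, with 56.4 for RUNX1. PABPC1, the poly(A)-binding protein that contacts EIF4G, had 61.0 and 91.7. ATF4, the transcription factor whose mRNA is translated when EIF2 is phosphorylated, had 26.7 and 9.77, and MTOR, the kinase that acts on the EIF4E-binding proteins, had 18.6 for PTBP1 and no RUNX1 peak.

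**Figure D2:**
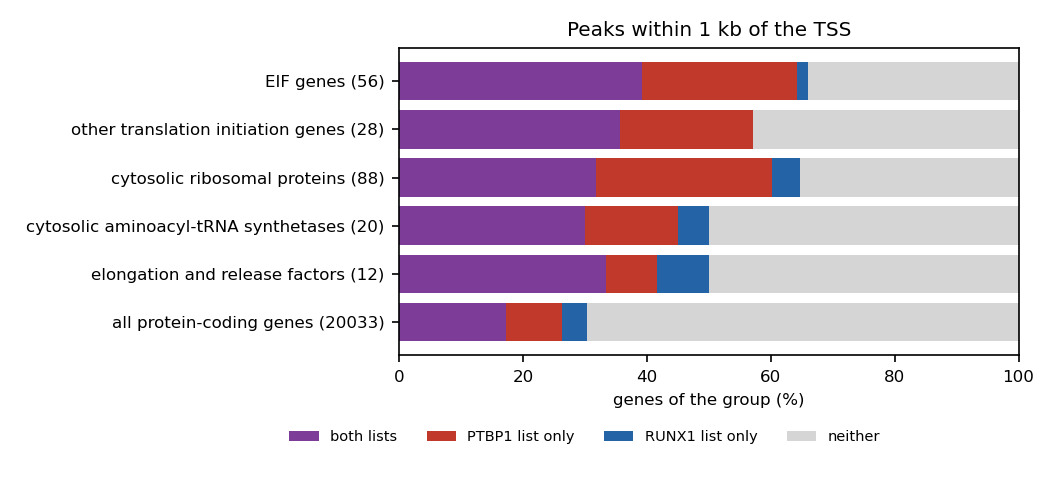
Share of genes (horizontal axis, %) with TSS peaks in both lists, in the PTBP1 list only, in the RUNX1 list only or in neither, for the EIF genes, 4 other groups of translation genes and all coding genes, with the number of genes in brackets. The EIF genes and the ribosomal protein genes have similar bars, and all coding genes have the longest grey bar, 69.7%.

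Fold enrichment, the ratio of fragments at a summit to the background with 1 added to each, did not set the EIF genes apart. Its median over their TSS peaks was 15.7 in the PTBP1 list, the same as over all coding genes with a TSS peak, and 15.0 in the RUNX1 list, where all coding genes had 15.8. Fold enrichment and p-value together give the whole number of fragments over each summit, which was 14 to 130 for PTBP1 (median 26) and 10 to 67 for RUNX1 (median 21). The medians over all coding genes were 28 and 21. In the PTBP1 list, 14 EIF genes (38.9%) were among the strongest 25% of peaks, against 39.6% of all coding genes with a TSS peak. In the RUNX1 list only 3 were, EIF1, EIF2B4 and EIF5 (13.0%, against 27.7%). At the other end, 1 EIF gene fell among the weakest 25% of each list, EIF4G3 for PTBP1 (2.78%, against 10.8%) and EIF5B for RUNX1 (4.35%, against 18.5%). RUNX1 peaks at EIF genes thus filled the middle of their list.

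The genes of start-site selection held the strongest PTBP1 peak. EIF1, which keeps the scanning ribosome open until the start codon is met, had a fold enrichment of 74.4 for PTBP1 (127 fragments, 95% exact Poisson interval 106 to 151) and 27.8 for RUNX1 (36, 25.2 to 49.8), at or above 98.3% and 82.4% of the respective lists. These intervals, and all others here, cover counting error only. EIF5, the GTPase activator of EIF2, had 45.3 (77 fragments, 60.8 to 96.2) and 24.1 (31, 21.1 to 44). EIF5B, the GTPase of subunit joining, was far lower at 12.2 (20 fragments) and 8.27 (10 fragments, 4.80 to 18.4), the last being the lowest RUNX1 value of any EIF gene. EIF1AD, named for its EIF1A-like domain, had 18.6 and 16.5, with both summits at the same base 128 bases before its TSS, in the stretch it shares with the divergent gene BANF1. Within this group of 7 genes, 4 had peaks in both lists (57.1%, against 17.3% of coding genes). The other 3 had none (42.9%, against 69.7%): EIF1B, a close paralog of EIF1, and the EIF1A genes EIF1AX and EIF1AY. EIF1AY lies on chromosome Y, where 0 of 63 coding genes had a TSS peak in either list. EIF1AX lies on chromosome X, where 9.08% of coding genes had a PTBP1 and 7.80% a RUNX1 TSS peak.

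Among the 6 genes of the ternary complex and related tRNA delivery, the subunits of EIF2 differed. EIF2S1, the α subunit that the stress kinases phosphorylate, had 28.5 (48 fragments, 35.4 to 63.6) for PTBP1 and 18.0 (23, 14.6 to 34.5) for RUNX1, and its TSS lies near that of the divergent gene ATP6V1D. EIF2S2, the β subunit, had lower values of 12.2 (20 fragments) and 11.3 (14), with summits 43 bases apart in the 5′ UTR. EIF2S3, the γ subunit on chromosome X that binds GTP and the tRNA, had no peak in either list, and of the 859 coding genes on that chromosome 9.08% had a PTBP1 and 7.80% a RUNX1 TSS peak. Its retrotransposed copy EIF2S3B had none either. EIF2A, an alternative carrier of initiator tRNA, had a PTBP1 peak alone, at 11.6 (19 fragments), and EIF2D, a factor of tRNA delivery and ribosome recycling, had no peak.

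All 5 subunit genes of EIF2B, the complex that reloads EIF2 with GTP, had a TSS peak, whereas 69.7% of all coding genes had none. They differed in which list held it. EIF2B4 was in both lists, with 29.6 for PTBP1 (50 fragments, 37.1 to 65.9) and the highest RUNX1 value of the EIF genes, 33.8 (44 fragments, 32.0 to 59.1), and its summits were 3 bases apart in the 5′ UTR opposite SNX17. EIF2B1, EIF2B2 and EIF2B3 were in the PTBP1 list alone, with 12.2, 19.8 and 10.5 (20, 33 and 17 fragments). EIF2B5, the catalytic subunit, was in the RUNX1 list alone, with 16.5 (21 fragments, 13.0 to 32.1). The EIF2B5 summit lay 28 bases before the canonical start, and the middle of the TGCGGT in the sequence printed above lay 13 bases from it, which is how distances of letters from a summit are given here. A TSS peak in the RUNX1 list alone was thus listed at a single subunit of a complex whose other subunits were in the PTBP1 list.

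Of the 4 kinases of EIF2, EIF2AK3 (PERK, the sensor of unfolded protein in the endoplasmic reticulum) and EIF2AK4 (GCN2, the sensor of uncharged tRNA) had PTBP1 peaks at the TSS, at 13.95 (23 fragments) and 9.88 (16). EIF2AK1 (HRI, regulated by heme) and EIF2AK2 (PKR, the sensor of double-stranded RNA) had no peak. None of these 4 kinases had a RUNX1 peak at the TSS, where 21.3% of all coding genes had one. The annotated 5′ end of EIF2AK3 lies 64054 bases before its canonical start, beside RPIA, and a second pair of peaks lay near the canonical start. There, PTBP1 reached 27.9 (47 fragments, 34.5 to 62.5) and RUNX1 24.8 (32, 21.9 to 45.2), with summits 459 and 644 bases before the canonical start and close to the TSS of the divergent lncRNA EIF2AK3-DT. With the canonical start as TSS, EIF2AK3 was therefore a gene with both peaks.

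EIF3, the scaffold of the initiation complex, had PTBP1 TSS peaks at 8 of its 14 genes (57.1%, against 26.4% of coding genes). RUNX1 peaks lay at 4 (28.6%, against 21.3%), all shared. EIF3B, part of its core, had 26.2 (44 fragments, 32.0 to 59.1) and 11.3 (14, 7.65 to 23.5). EIF3J, a loosely attached subunit, had 25.6 (43 fragments) and 20.3 (26), with summits 3 bases apart before the start and near that of EIF3J-DT. EIF3D, which can itself contact the cap, had 15.7 and 12.03, and EIF3K 15.7 and 11.3, the latter with summits 457 bases apart in the stretch between EIF3K and MAP4K1. In the PTBP1 list alone were EIF3H at 16.3, EIF3G at 13.95, EIF3E at 11.0 and EIF3L at 9.30 (27, 23, 18 and 15 fragments). Peaks were absent from EIF3A, the largest subunit, and from EIF3C, EIF3CL, EIF3F and EIF3I. EIF3M had no TSS peak but a RUNX1 peak of 29.3 (38 fragments, 26.9 to 52.2) in intron 6, the second highest RUNX1 value at any EIF gene, which held neither TGTGGT nor TGCGGT.

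The annotation matters at several EIF3 genes. The gene 5′ ends of EIF3E and EIF3H lie 194779 and 11102 bases before the canonical starts, beside EMC2 and UTP23, so their TSS peaks sit at those neighbours too. EIF3E had a further PTBP1 peak of 13.95 only 55 bases before its canonical start, whereas EIF3H had none there. EIF3C and EIF3CL are near-identical copies. The authors kept only alignments of high mapping quality, and just 31.4% and 5.61% of the 93-base words in their TSS windows occur once in hg38. What this did to their peaks was not tested. EIF5AL1 had 63.5%, and the other 53 EIF genes had at least 90%.

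Cap binding and mRNA unwinding had PTBP1 TSS peaks at 10 of its 12 genes (83.3%, against 26.4% of coding genes). RUNX1 peaks lay at 8 (66.7%, against 21.3%), all shared. EIF4A1, the main helicase of EIF4F, had 63.4 (108 fragments, 88.6 to 130) for PTBP1, at or above 97.5% of that list, and 18.8 (24, 15.4 to 35.7) for RUNX1, at or above 66.4%. Its summits were 6 bases apart, and its TSS lies inside the readthrough gene SENP3-EIF4A1, 9537 bases from the start of that gene. EIF4A2, its paralog, had only a PTBP1 peak of 9.88 (16 fragments), with a summit in intron 1, and EIF4A3, the helicase of the exon junction complex, only a PTBP1 peak of 25.6 (43 fragments). The 3 helicase paralogs therefore covered a wide range in the PTBP1 list, and EIF4A1 alone was in both. Their partners EIF4B and EIF4H, which stimulate EIF4A, were both shared, at 33.7 and 14.3 for EIF4B (57 and 18 fragments) and 11.6 and 12.03 for EIF4H (19 and 15).

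EIF4E, the cap-binding protein, was among the few genes placed higher in the RUNX1 than in the PTBP1 list, with 11.6 for PTBP1 and 15.0 for RUNX1 (19 fragments in each). EIF4E2, a cap-binding repressor, had 15.7 and 12.03, while EIF4E3 and EIF4E1B, the atypical and germline forms, had no peak. The scaffold EIF4G1 had 20.9 (35 fragments) and 12.03 (15), and EIF4G3 had 8.72 (14) and 16.5 (21), the reverse order. EIF4G2, which initiates without EIF4E, had 9.33 (36 fragments) and 12.7 (29), on a background that was raised in both lists (2.97 fragments against the usual 0.72, and 1.36 against 0.33). Its fold enrichment is therefore lower than its fragment count would give elsewhere.

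Of the proteins that bind EIF4E, EIF4EBP1, the best known target of MTOR in this pathway, had 22.1 (37 fragments, 26.1 to 51.0) and 21.1 (27, 17.8 to 39.3), with both summits in intron 1. EIF4EBP3 had 16.9 and 11.3. Its PTBP1 summit lay in coding exon 1, and the gene begins inside the readthrough gene ANKHD1-EIF4EBP3. EIF4EBP2 had no TSS peak but a RUNX1 peak of 17.3 (22 fragments, 13.8 to 33.3) in intron 1, 1475 bases past the start, where TGCGGT lay 5 bases from the summit. EIF4ENIF1, the transporter of EIF4E, had a weak PTBP1 peak of 9.30 at its gene 5′ end, and 16.3 for PTBP1 and 22.6 for RUNX1 (27 and 29 fragments) at the same base 273 bases before its canonical start.

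EIF5A, the hypusine-carrying factor that also acts in elongation, had the most fragments of any EIF gene, 130 (109 to 154) for PTBP1 and 67 (51.9 to 85.1) for RUNX1. Its background was raised as well, at 5.93 and 2.72 fragments, so its fold enrichment was 18.9 and 18.3. No peak was listed at its paralog EIF5A2 or its retrotransposed copy EIF5AL1. EIF6, which holds the large ribosomal subunit apart from the small one, had a PTBP1 peak of 9.88 (16 fragments) and no RUNX1 peak.

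**Figure D3:**
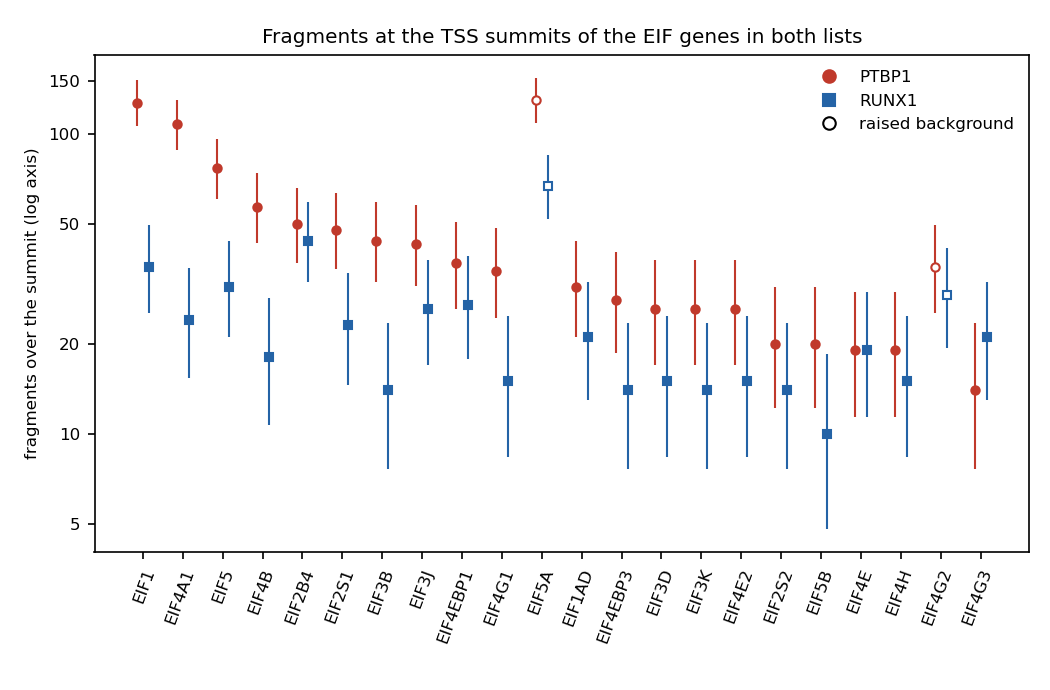
Fragments over the TSS summit (vertical log axis) at the 22 EIF genes with peaks in both lists, in order of PTBP1 fold enrichment. Bars are 95% exact Poisson intervals, and open symbols mark a raised background. EIF5A, EIF1 and EIF4A1 have the most PTBP1 fragments, 130, 127 and 108, and at EIF4G3 the RUNX1 count is the higher.

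Over the 22 genes with both peaks, the PTBP1 median was 18.7 (8.72 to 74.4), and over the 14 in the PTBP1 list alone it was 11.3 (9.30 to 25.6). The same medians over all coding genes were 19.2 (3469 genes) and 11.6 (1812). Genes with both peaks therefore had the stronger PTBP1 peaks, among the EIF genes as among coding genes at large. EIF4A3 was the strongest of those without a listed RUNX1 peak. By position within each list, the PTBP1 peak ranked higher than the RUNX1 peak at 19 of the 22 (86.4%, against 73.4% of coding genes with both). The exceptions were EIF4E, EIF4G2 and EIF4G3. EIF3B showed the widest gap, at or above 86.8% of the PTBP1 list and 32.6% of the RUNX1 list. The rank correlation of fold enrichment between the lists was 0.58 over the 22 genes and 0.56 over the 3469 coding genes, as a description of genes that share libraries and are not replicates.

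Summits of the lists lay close together. Their median distance was 84.5 bases over the 22 genes (79.0 over coding genes with both), and 17 pairs (77.3%, against 79.6%) were within 200 bases. Relative to the canonical transcript, 24 of the 36 PTBP1 summits lay upstream, 8 in the 5′ UTR, 3 in an intron and 1 in a coding exon. The 24 include 4 summits over 1 kb from the canonical start, at EIF2AK3, EIF3E, EIF3H and EIF4ENIF1. Of the 23 RUNX1 summits 15 lay upstream, 4 in the 5′ UTR and 4 in an intron. Relative to the gene TSS the order was the other. There, 15 PTBP1 summits lay upstream and 21 at or downstream, and for RUNX1 10 and 13. These positions were not counted over all coding genes. Peaks at EIF genes had a median width of 788 bases for PTBP1 and 709 for RUNX1, against 756 and 721 for coding genes.

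**Figure D4:**
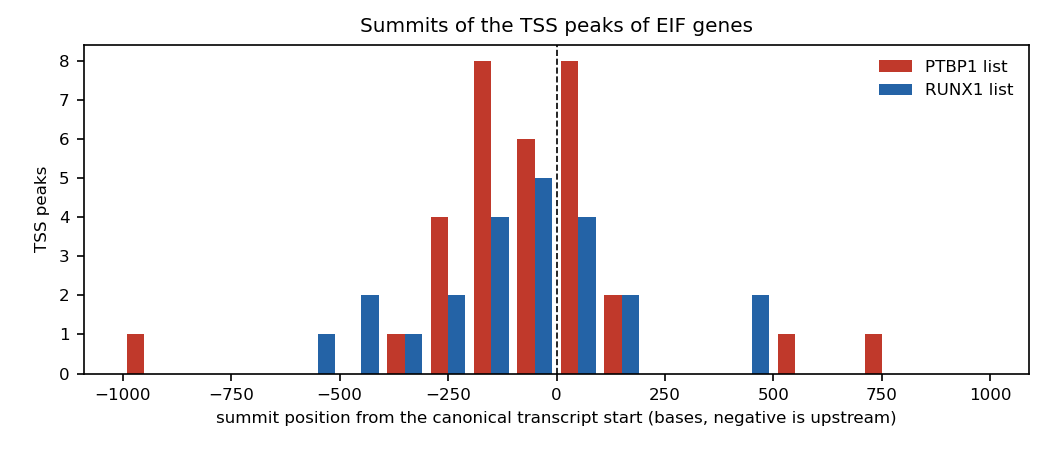
Position of TSS summits from the canonical transcript start (horizontal axis, bases, negative upstream, bins of 100 bases) for the 32 PTBP1 and 23 RUNX1 peaks of EIF genes within 1 kb of it. Most summits, 28 and 17, lie within 300 bases of the start, and 20 and 15 lie upstream of it.

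Many of these promoters are shared with another gene, in which case a peak cannot be given to one gene or the other. A coding gene on the opposite strand started within 1 kb at 13 EIF genes (23.2%, against 13.4% of coding genes). Of these, 11 (84.6%) had a PTBP1 and 6 (46.2%) a RUNX1 peak. Without such a neighbour the counts were 25 (58.1%) and 17 (39.5%) of 43. All coding genes with a divergent coding neighbour had shares of 51.6% and 40.4%, and those without one 22.5% and 18.3%. The PTBP1 share of the EIF genes was thus the higher with and without a divergent neighbour, whereas the RUNX1 share of the 13 genes with one was near that of coding genes.

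Peaks in the gene body away from the TSS were few. PTBP1 had 6 at 5 EIF genes (8.93%, against 12.4% of coding genes) and RUNX1 had 4 at 4 (7.14%, against 11.5%), and the median length was 23.9 kb for EIF genes and 27.5 kb for coding genes. Beside those of EIF2AK3, EIF3E and EIF4ENIF1 before a canonical start, EIF4A1 had a PTBP1 peak of 58.1 (99 fragments, 80.5 to 121) across its 3′ end, with a summit past the transcript, near the starts of CD68 and the snoRNA gene SNORA67. A second one, of 8.14 (13 fragments), lay in intron 3 near SNORA48. EIF3G had a PTBP1 peak of 11.6 (19 fragments) past the end of its canonical transcript and within 1 kb of the start of another coding transcript of the gene. EIF3M and EIF4EBP2 were the 2 genes whose gene-body RUNX1 peak lay in an intron and over 1 kb from any coding transcript start of the gene or start of another gene. Leaving out peaks at the TSS of another gene lowered the counts to 2 in each list (against 9.03% and 8.97% of coding genes), and setting apart any coding transcript start of the gene lowered them to 1 and 2 (against 8.52% and 8.28%). In all, 39 of the 56 genes (69.6%, against 39.6% of coding genes) had a peak of either list at the TSS or in the body and 17 had none.

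RUNX core letters were rare at the summits. TGTGGT or TGCGGT, on either strand, lay with the whole word within 50 bases of the RUNX1 TSS summit at 2 of 23 EIF genes, EIF2B5 and EIF2S2 (8.70%, against 12.7% of coding genes with a RUNX1 TSS peak). By the same rule they lay near the PTBP1 summit at 0 of 36 (against 6.99%), though at EIF2S2 the middle of a TGCGGT was 49 bases from it and the word ran past the window. Widening to 100 bases gave 4, adding EIF4E and EIF5A, and 2, EIF2B3 and EIF2S2 (21.9% and 13.6% of coding genes). The letters of both sites within 50 bases were TGCGGT, and TGTGGT lay within 50 bases of no EIF TSS summit. A match or its absence says only that these letters are or are not in the window.

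Promoters were compared over 250 bases before and 50 bases from the canonical start, on both strands unless stated. The ETS core CCGGAAG was present in 19 EIF promoters (33.9%, against 14.1% of all coding promoters), and the GC box GGGCGG in 78.6% (against 61.3%). The YY1 letters AAGATGGC were in 8.93% (against 4.04%), the NRF1 letters GCATGCGC in 7.14% (against 4.27%), the RUNX letters in 16.1% (against 18.9%), and TATAAA before the start, on the gene's strand, in 5.36% (against 6.90%). Runs of at least 12 pyrimidines, the kind of letters that PTBP1 binds in RNA, were in 41.1% (against 46.1%). GC content had a median of 64.3% (against 63.7%). ETS letters were in 11 of the 36 EIF promoters with a PTBP1 TSS peak (30.6%) and in 8 of the 20 without one (40.0%). Those 8 include the near-identical EIF3C and EIF3CL and the copy EIF2S3B. Among all coding genes the ETS letters were the more frequent with a peak, at 19.9% against 12%. The GC box was in 75% of the EIF promoters with a PTBP1 TSS peak and 85% of those without. Among all coding genes these shares were 79.4% and 54.8%.

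**Figure D5:**
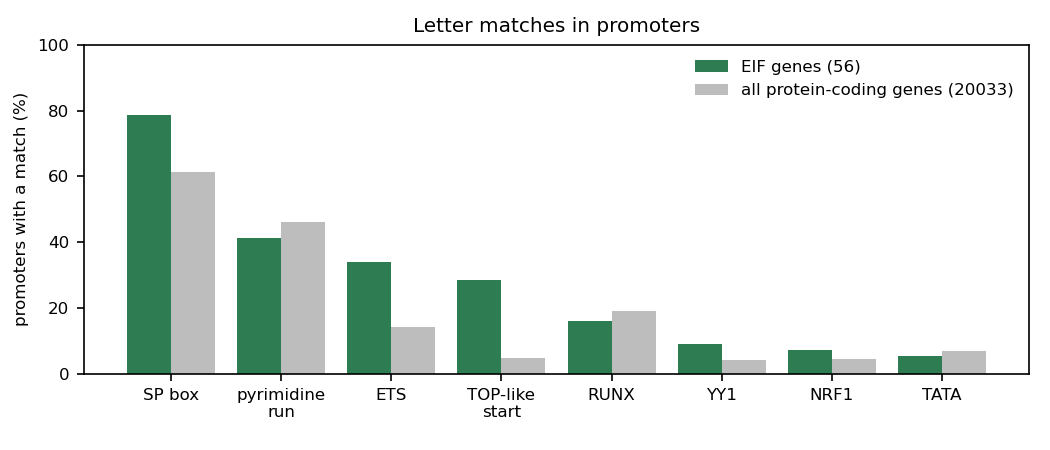
Share of promoters (vertical axis, %) holding each set of letters, for the 56 EIF genes and all 20033 coding genes. The bars differ most for the TOP-like start and the ETS letters, and the RUNX letters, pyrimidine run and TATA letters are less frequent in the EIF genes.

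A TOP-like start, here a C at the canonical start followed by at least 4 more pyrimidines, was present at 16 EIF genes (28.6%, against 4.59% of coding genes). Such starts are the mark of mRNAs whose translation follows growth signals, ribosomal protein mRNAs being the classical case. The starts below show 10 bases before and 20 from the canonical start, with the pyrimidines that run on unbroken from the start in capitals; in some, pyrimidines also precede the start. They are those of EIF3D (chr22:36529147-36529176, minus strand), EIF3K (chr19:38619178-38619207, plus strand) and EIF4B (chr12:53006446-53006475, plus strand), which had peaks in both lists, and of EIF2S3 (chrX:24054946-24054975, plus strand), EIF3A (chr10:119080798-119080827, minus strand) and EIF3F (chr11:7987327-7987356, plus strand), which had none.

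EIF3D: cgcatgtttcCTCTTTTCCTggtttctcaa
EIF3K: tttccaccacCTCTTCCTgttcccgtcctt
EIF4B: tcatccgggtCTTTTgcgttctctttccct
EIF2S3: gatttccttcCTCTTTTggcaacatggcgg
EIF3A: gtggctccttCCTTTCCgtctctggccggc
EIF3F: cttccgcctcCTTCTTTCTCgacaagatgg

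Of the EIF genes with a TOP-like start, 8 had a PTBP1 TSS peak (EIF2A, EIF3D, EIF3E, EIF3H, EIF3K, EIF3L, EIF4A2 and EIF4B) and 8 did not. The starts were thus present in 22.2% of the 36 EIF genes with a PTBP1 TSS peak and 40.0% of the 20 without one, whereas among all coding genes the order was the other, 6% and 4.08%. The letters were read at the canonical start but the peaks at the gene TSS. These TSS summits lay 195123 and 10493 bases from the canonical start at EIF3E and EIF3H. The 8 genes without a peak include EIF3C with its copy EIF3CL, whose windows hold few unique words, and EIF2S3 with its copy EIF2S3B. The split was not recounted without them.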

How the data were processed

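CUT&Tag and CUT&RUN were performed on MOLM-13 cells, and 2 deposited peak lists were used. The authors mapped read pairs with Bowtie2 to hg38, discarded alignments of low mapping quality and duplicates, and ran MACS3 with a q-value threshold of 1e-07. The lists name a target only and were taken as CUT&Tag, the assay for which the study describes peak calling; whether replicates were pooled is not stated. The deposited columns hold peak positions, the fold enrichment at the summit (a ratio), the −log10 p-value and −log10 q-value, and a score that restates the −log10 q-value. Fold enrichment and p-value were solved for a whole number of fragments and a background, taken as raised above 1.5 times the usual level. Library depths were not used, so depth enters only through these fragments. Genes came from GENCODE version 44, and the strongest peak within 1 kb represented a TSS. Features are those of the canonical transcript, and coordinates are 1-based. No test was made, since each target has 1 list. All members were described, and the other translation lists and letters searched were chosen, like the members, with earlier results of these data known. A DNA word of 93 bases, a length chosen for this check and shorter than a read, was counted as unique where it occurred once in hg38. The procedures were tested on simulated data. Python 3.11.15, numpy 2.4.6, pandas 2.3.3, scipy 1.17.1, matplotlib 3.10.9 and pysam 0.24.0 were used.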

Additional observations from a re-analysis of the deposited data

How the results depend on the processing

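Of 41 alternatives, 34 left a count within 1.5 times its value. Some of these could not move. Leaving copies out could not lower a TSS count, since no copy had a TSS peak. TGTGGT alone could not change the PTBP1 letter count, which was 0 already. Over other windows, TSS rules, thresholds, a raised background left out and copies left out, PTBP1 TSS counts ran from 27 to 36, RUNX1 counts from 18 to 25 and shared counts from 16 to 24. The lowest values came from requiring the TSS base itself in the peak. By that rule, PTBP1 had 48.2% of EIF genes against 19.9% of coding genes, and RUNX1 32.1% against 15.5%. Both lists had 28.6% against 11.9%. Both stricter overlap rules left 17 shared pairs (30.4% of EIF genes). Coding genes had 13.9% with summits at most 200 bases apart and 13.3% with a reciprocal overlap of at least 50%. Gene-body counts were small and moved: leaving out peaks at the TSS of another gene gave 2 for PTBP1 and 2 for RUNX1 (9.03% and 8.97% of coding genes), and setting apart any coding transcript start gave 1 and 2 (8.52% and 8.28%). RUNX letters within 100 bases of the summit were at 2 genes for PTBP1 and 4 for RUNX1 (13.6% and 21.9% of coding genes with such a peak). TGTGGT alone lay within 50 bases of the RUNX1 summit at 0 (5.56% of coding genes). No paired analysis was possible because the lists carry no replicates, and for the same reason no replicate could be left out.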
